A study of Mus musculus with 70 samples.

Results

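Conventional dendritic cells of type 1 (cDC1) sorted from the spleens of NOD mice were compared with cDC1 of B6g7 mice across all genes. The libraries were chosen by their titles: 6 labelled cDC1, NOD and PBS and 6 labelled cDC1, B6g7 and PBS, 12 of the 70 libraries of the series. NOD mice develop autoimmune diabetes, and the mice were prediabetic per the series title. B6g7 stands for C57BL/6.g7, a C57BL/6 line with the g7 haplotype of the MHC, the one found in NOD. All mice were 8 to 10 weeks old and were killed 5 h after an intraperitoneal injection of PBS, so neither strain was stimulated. Replicates 1 to 3 of each strain were sorted on 10.26.2015 from 2000 cells each. Replicates 4 to 6 were sorted on 01.05.2016, from 5000 cells each for B6g7 and 3021 to 3384 cells for NOD, so cell number differed between the strains on that date and cannot be told apart from strain there. The labels do not say whether the libraries came from separate mice. The p-values measure a spread per gene that was estimated over all 47 NOD and B6g7 libraries of 5 cell types. The 12 cDC1 libraries are only a part of these, and the spread may be technical in part. A further 6 cDC1 libraries, 3 of NOD Rag1-/- and 3 of B6 Rag1-/- mice that lack mature lymphocytes, served as another set of samples, and the 12 cDC2 libraries of NOD and B6g7 as another cell type.

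cDC1 are the dendritic cells that take up dead cells and present their antigens on MHC class I to CD8+ T cells. They depend on the transcription factors IRF8 and BATF3, make the cytokine IL-12, and in the mouse spleen carry CD8α, XCR1 and CLEC9A on their surface. Type I interferons bind a receptor that all nucleated cells carry, and through the kinases JAK1 and TYK2 and factors such as STAT2 and IRF9 they raise the transcription of antiviral effectors, sensors of foreign nucleic acid and IRF7, which in turn raises interferon production. The comparison addresses, per the series title, whether the interferon-response genes of resting dendritic cells differ between the strains, and beyond that which other genes differ.

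The libraries held 14.3 to 19.7 M expected counts, and levels are given below as CPM, counts in proportion to the library total, scaled between libraries but not for transcript length, so that a level is compared between strains and not between genes. The sort label was met: Xcr1, Clec9a and Irf8 were counted in every library, as was Cd8a, the gene of a sorting antigen and therefore no finding. Xcr1 lay at 736 to 939 CPM in B6g7 (median 843) and 895 to 1154 CPM in NOD (median 1084) (log2 0.32 ± 0.22, adjusted p = 0.33), Clec9a at 435 to 507 CPM in B6g7 (median 474) and 289.8 to 392 CPM in NOD (median 349) (log2 -0.46 ± 0.20, adjusted p = 0.11), Cd8a at 693 to 1666 CPM in B6g7 (median 1238) and 619 to 1249 CPM in NOD (median 902) (log2 -0.34 ± 0.29, adjusted p = 0.46) and Irf8 at 1732 to 2493 CPM in B6g7 (median 2111) and 1825 to 2890.0 CPM in NOD (median 2267) (log2 0.12 ± 0.14, adjusted p = 0.62). None of the 4 passed the test, although all 6 NOD libraries lay below all 6 B6g7 libraries for Clec9a, which did pass when the 12 cDC1 libraries were fitted alone (adjusted p = 1.2e-05) and with limma-voom (adjusted p = 1.0e-04), as did Xcr1 (adjusted p = 0.0042 and 0.0023) and Cd8a (adjusted p = 0.00034 and 0.026). Markers of other cells differed between the strains. All 10 erythroid markers tested were higher in NOD and did not overlap within either date, with a summed level of 134 to 2123 CPM in B6g7 and 2315 to 12450 CPM in NOD. B cell markers summed to 69.7 to 103.7 CPM in B6g7 and to 67.2 to 124 CPM in NOD on 01.05.2016, but to 330 to 623 CPM in NOD on 10.26.2015. T cell markers gave 5.57 to 15.9 CPM in B6g7, 14.7 to 20.1 CPM in NOD on 01.05.2016 and 66.9 to 92.2 CPM in NOD on 10.26.2015, and neutrophil markers 0.423 to 5.60, 9.71 to 73.8 and 125 to 266 CPM. The neutrophil genes Mpo and Elane had no count in B6g7. cDC2 markers summed to less in NOD on both dates, at 464 to 576 against 703 to 821 CPM and 308 to 329 against 461 to 501 CPM, but singly they went both ways. Of the 12, Clec12a, Clec7a, Sirpa and Irf4 fell and Cd4, Esam and Itgam rose, with a median log2 change of -0.09 (0.02 and 0.11 on the 2 dates). In bulk samples fewer cells of a type and less RNA per cell cannot be told apart.

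**Figure D1:**
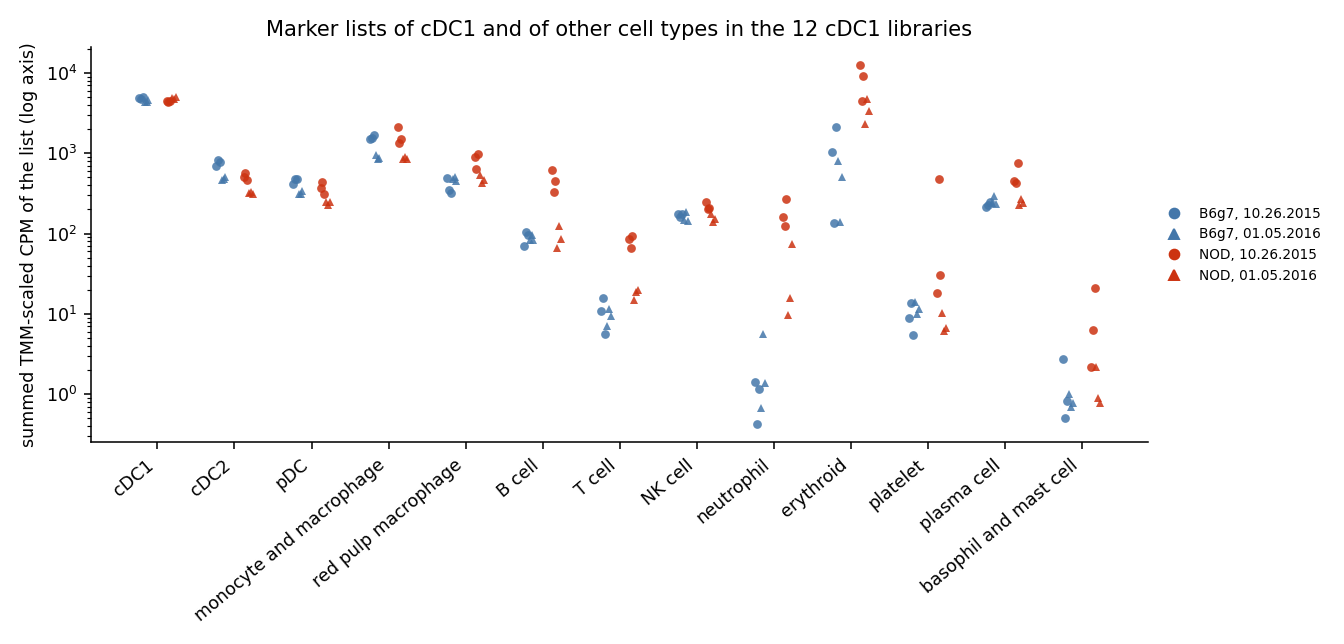
Summed CPM of each cell type's marker genes (log axis), 1 point per cDC1 library; blue, B6g7; red, NOD; circles, sorted 10.26.2015; triangles, sorted 01.05.2016. cDC1 markers lie between 4299 and 4988 CPM in every library, erythroid markers are higher in NOD on both dates, and B and T cell markers stand apart in the NOD libraries of 10.26.2015.

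Of 13413 genes tested, 2738 (20.4%) differed between NOD and B6g7 cDC1 at an adjusted p under 0.05, with 1540 (11.5%) higher in NOD and 1198 (8.93%) lower. Counts of called members in the gene lists below are to be read beside these shares, and several lists lie near them. The median log2 change of all tested genes was 0.02, and the median size of the change among called genes was 0.79. A log2 change of at least 1 was reached by 781 of the higher and 372 of the lower genes. For 682 called genes (5.08%) the 6 NOD and 6 B6g7 libraries did not overlap, 416 higher (3.10%) and 266 lower (1.98%). Taken within each sort date, 926 higher (6.90%) and 792 lower (5.90%) called genes did not overlap. Fitted by date, 1720 genes (12.9%) were called on 10.26.2015, 7.45% of those tested being higher and 5.46% lower, and 1345 (10.1%) on 01.05.2016, 5.18% higher and 4.87% lower. Of these, 744 were called on both in the same direction, which is 43.4% of the first list and 55.8% of the second, and 5 were called in opposite directions. Called genes lay on every chromosome, from 14.2% of the tested genes of chromosome 10 to 25.1% of those of chromosome 13. The authors' deposited limma results are per transcript and come from the same libraries, and the transcript of smallest p was taken for each gene. There 95 of 96 called genes named by the rules used here had the same sign, and 77 had that sign with an adjusted p under 0.05. The gene with the other sign was Clec7a (log2 1.62, limma adjusted p = 0.06), which fell here. Of the cDC1 markers, not called here, Xcr1 (limma adjusted p = 0.0017), Clec9a (0.0011) and Cd8a (0.0061) passed there and Irf8 (0.85) did not.

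The largest differences were genes counted in 1 strain and with no or few counts in the other. The reference behind the counts is not given. The part of strain differences in sequence, which may affect read mapping, was not tested here or for the genes below. BC018473, a long noncoding RNA gene, had 29.7 to 69.2 CPM (median 61.2) in NOD and no count in any B6g7 library, at least 1763-fold higher against a floor of 3 counts over the group. St6galnac1, a sialyltransferase gene that neighbours BC018473 on chromosome 11 in RefSeq's annotation of GRCm38.p6, had 25.2 to 54.8 CPM (median 44.9) in NOD and none in B6g7, at least 1281-fold higher. Pira1, which encodes an activating immunoglobulin-like receptor with close paralogs, was at least 956-fold higher, the proton pump subunit gene Atp6v0e2 at least 630-fold and 9830107B12Rik at least 407-fold. Vill, a villin-like gene, went the other way, with 16.4 to 36.6 CPM (median 21.1) in B6g7 and no count in NOD, at least 706-fold lower. Spint1, an inhibitor of serine proteases, lay at 94.1 to 113 CPM in B6g7 (median 110.5) and 0 to 0.446 CPM in NOD (median 0.0514) (log2 -9.29 ± 0.37, adjusted p = 3.1e-21). Its strains were separated by a wide gap. Hebp1, a haem-binding protein gene, lay at 0.286 to 0.719 CPM in B6g7 (median 0.645) and 32.4 to 51.1 CPM in NOD (median 42) (log2 6.11 ± 0.20, adjusted p = 5.3e-27), and every NOD library was above every B6g7 library. Ucp1 (log2 7.50 ± 0.98) and Zfp979 (9.39 ± 0.53) rose from near 0, and Nlrp1c-ps (-8.17 ± 0.46), Tmem14c (-4.88 ± 0.29), Ndufs5 (-4.76 ± 0.32) and Ahcy (-4.65 ± 0.33) fell, all 6 without overlap. Gm8615 rose (9.86 ± 0.30), as did Ubb-ps (2.66 ± 0.22), while Rpl34-ps1 (-4.90 ± 0.78) fell. These pseudogene symbols, like Tmem14c, Ndufs5 and Ahcy, share sequence with other loci, and the assignment of their reads is uncertain.

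Interferon-response genes were mostly lower in NOD cDC1. Of 61 type I interferon-stimulated genes tested, 31 fell, 2 rose and 28 did not pass, with a median log2 change of -0.43 beside 0.02 over all genes. Of the 31, 24 did not overlap within either date and 8 did not overlap at all. Over all tested genes 5.90% were called lower without overlap within dates, and 1.98% were called lower with no overlap at all. Without NOD replicate 4 the 2 rises became 4. On 10.26.2015 alone 23 fell and none rose, and on 01.05.2016 alone 18 fell and 2 rose. The promoters of 4 genes of this list are printed here, with those of 2 guanylate-binding protein genes that rose and of Apol7c. They show in capitals the letters GAAA, any pair of bases and GAAA again, a core of the element that interferon-activated factors bind, or TTTC, any pair of bases and TTTC where it lies on the other strand, within windows of 80 bases of the 250 bases before the start of each gene, from RefSeq's GRCm38.p6.
Oas1a, chr5:120907526-120907605, - strand: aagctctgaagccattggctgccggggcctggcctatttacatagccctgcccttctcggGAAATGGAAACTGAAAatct
Ifit3, chr19:34583338-34583417, + strand: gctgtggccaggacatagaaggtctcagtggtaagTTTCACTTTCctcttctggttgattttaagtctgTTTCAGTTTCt
Isg15, chr4:156200852-156200931, - strand: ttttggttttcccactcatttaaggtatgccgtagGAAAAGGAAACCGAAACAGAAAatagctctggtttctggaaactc
Stat2, chr10:128270248-128270327, + strand: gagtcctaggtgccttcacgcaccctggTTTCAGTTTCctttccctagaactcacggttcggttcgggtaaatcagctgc
Gbp2, chr3:142620569-142620648, + strand: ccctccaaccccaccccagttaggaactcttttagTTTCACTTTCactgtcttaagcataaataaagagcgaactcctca
Gbp2b, chr3:142594675-142594754, + strand: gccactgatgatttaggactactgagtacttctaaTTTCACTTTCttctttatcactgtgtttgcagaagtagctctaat
Apol7c, chr15:77533326-77533405, - strand: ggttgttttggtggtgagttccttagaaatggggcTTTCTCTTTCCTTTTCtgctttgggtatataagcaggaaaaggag
These letters, searched on both strands with overlapping matches merged in capitals, occur before 978 of 32851 promoters (2.98%), before 368 of 10740 tested genes with a promoter in the table (3.43%), and before 14 of 46 such genes of the type I list (30.4%). Within that list they stood before 9 of 25 genes that fell and 5 of 19 that did not pass. A match describes the letters and not a bound site.

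Sensors and effectors of the response to double-stranded RNA were among the larger falls. Ifih1, which encodes the cytosolic RNA sensor MDA5 and lies in a diabetes-associated locus in humans, was at 14.2 to 31.4 CPM in B6g7 (median 22.6) and 3.12 to 7.55 CPM in NOD (median 4.51). The strains did not overlap (log2 -2.15 ± 0.25, adjusted p = 8.2e-09), and the change was -1.81 on 10.26.2015 and -2.44 on 01.05.2016. Oas1a, an oligoadenylate synthetase that activates RNA degradation, lay at 6.71 to 14.6 CPM in B6g7 (median 10) and 1.07 to 3.56 CPM in NOD (median 1.79). Again all NOD libraries were below all B6g7 libraries (log2 -2.32 ± 0.23, adjusted p = 2.3e-10), although Oas1a shares sequence with Oas1g and other copies. Ifi27l2a, an interferon-induced mitochondrial protein gene, had 16.9 to 67.5 CPM in B6g7 (median 42.3) and 2.88 to 28.8 CPM in NOD (median 10.6). Its ranges overlapped between dates but not within them (log2 -1.996 ± 0.27, adjusted p = 4.2e-07). Among the other antiviral effectors, Ifi44 (-1.95 ± 0.39), Ifit3 (-1.53 ± 0.49), Oasl2 (-1.41 ± 0.29), Ifit2 (-1.22 ± 0.18), the RNA-activated kinase gene Eif2ak2 (-0.98 ± 0.15), Ly6e (-0.98 ± 0.17), Isg15 (-0.85 ± 0.19) and Mx1 (-0.74 ± 0.18) fell. Isg20, an exonuclease gene, rose (0.79 ± 0.17), as did Pml (0.66 ± 0.16), the scaffold of nuclear bodies.

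Downstream transcription factors fell by less, and the receptor genes did not pass. Irf7, the factor that amplifies interferon production, lay at 126 to 188 CPM in B6g7 (median 143) and 66.2 to 91.9 CPM in NOD (median 85.1), with no overlap (log2 -0.84 ± 0.12, adjusted p = 1.1e-06). Irf9, the DNA-binding partner of STAT2, was at 115 to 166 CPM in B6g7 (median 138) and 87.9 to 136 CPM in NOD (median 107). It fell by 0.34 on the log2 scale (adjusted p = 5.1e-04), with overlap between dates but not within them. Stat2 lay at 37.9 to 105 CPM in B6g7 (median 66.5) and 24.1 to 80.4 CPM in NOD (median 53.96) and fell (log2 -0.50 ± 0.10, adjusted p = 1.9e-04). On 01.05.2016 alone neither Irf9 (-0.25, adjusted p = 0.14) nor Stat2 (-0.32, adjusted p = 0.12) passed. Stat4, which signals downstream of IL-12, was at 6.59 to 14.5 CPM in B6g7 (median 11.2) and 2.04 to 10.2 CPM in NOD (median 5.81) and fell (log2 -0.86 ± 0.23, adjusted p = 0.0056), with a change of -0.26 on 10.26.2015 and -1.40 on 01.05.2016. Of 24 receptor and JAK-STAT genes 4 fell and none rose (median -0.04), with 1 rise without B6g7 replicate 3, 4 or 5 or NOD replicate 4. Ifnar1 (-0.17 ± 0.09, adjusted p = 0.19) and Ifnar2 (0.01 ± 0.07, adjusted p = 0.94), the subunits of the type I interferon receptor, did not pass, nor did the kinases Jak1 (-0.06 ± 0.08, adjusted p = 0.65) and Tyk2 (-0.05 ± 0.09, adjusted p = 0.76). Of 9 interferon regulatory factors 3 fell, and Irf3 (0.11 ± 0.07, adjusted p = 0.30) and Irf5 (-0.02 ± 0.06, adjusted p = 0.89), which act before interferon is made, did not pass. The third that fell, Irf4 (log2 -0.44 ± 0.16, adjusted p = 0.04), lost its call in 9 of the 12 fits without 1 library.

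**Figure D2:**
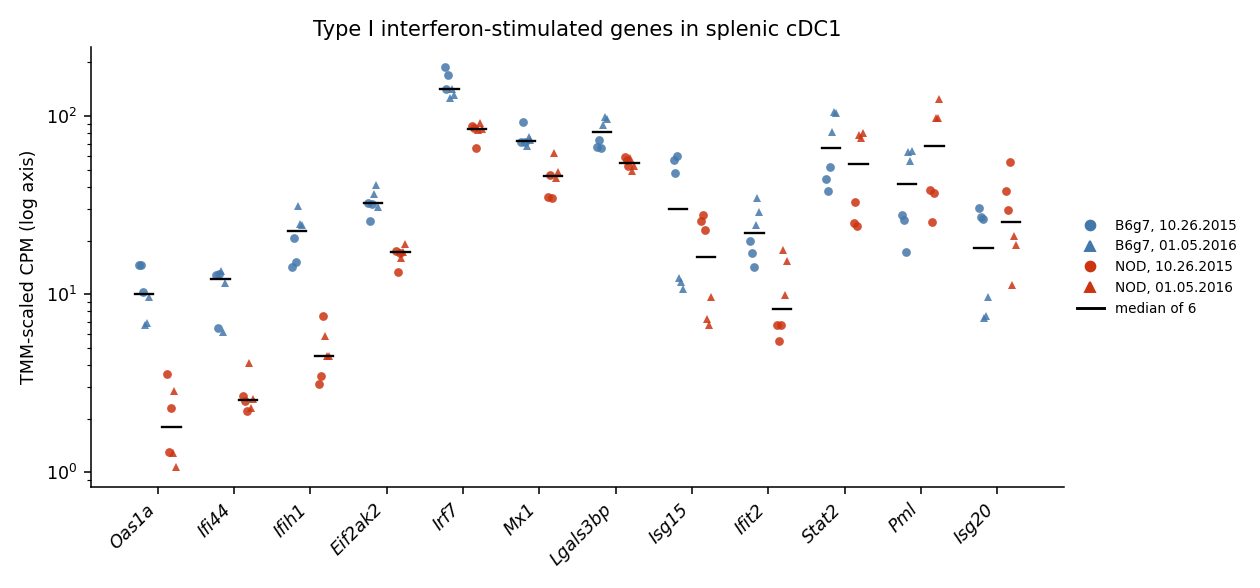
CPM of interferon-response genes (log axis), 1 point per cDC1 library; blue, B6g7; red, NOD; circles, sorted 10.26.2015; triangles, sorted 01.05.2016; black lines, medians of 6. Ifih1, Oas1a and Irf7 separate the strains without overlap, and Stat2 overlaps with medians of 66.5 CPM in B6g7 and 53.96 CPM in NOD.

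The interferon-inducible gene families did not move as 1 group. Of 19 guanylate-binding proteins (GBPs) and immunity-related GTPases, which attack the membranes around intracellular pathogens, 6 rose and 5 fell, with a median log2 change of -0.20 and a mean of 0.68. The falls numbered 3 without B6g7 replicate 1 or 5 or NOD replicate 1 or 3, and when libraries were scaled by their totals alone. Gbp2b, also known as Gbp1, had 0.338 to 2.52 CPM in B6g7 (median 1.77) and 227 to 417 CPM in NOD (median 351). The strains did not overlap (log2 7.66 ± 0.32, adjusted p = 2.9e-19). Gbp3 lay at 3.04 to 8.80 CPM in B6g7 (median 6.04) and 111 to 208 CPM in NOD (median 149.9) (log2 4.69 ± 0.18, adjusted p = 4.1e-24) and Gbp2 at 10.4 to 23.9 CPM in B6g7 (median 19.4) and 155 to 229 CPM in NOD (median 190.5) (log2 3.42 ± 0.17, adjusted p = 2.9e-19), both without overlap. Gbp5 (1.41 ± 0.20) and Gbp7 (1.73 ± 0.43) also rose, while Gbp4 (-0.66 ± 0.19) fell, as did the GTPase genes Tgtp2 (-0.78 ± 0.14), Irgm2 (-0.69 ± 0.20), Ifi47 (-0.36 ± 0.13) and Irgm1 (-0.31 ± 0.11). Igtp rose (0.44 ± 0.11). The tested GBP genes lie on chromosome 3 or chromosome 5 and are similar in sequence, so the split of reads among them is uncertain. All 6 that rose and 3 of the 4 that fell, among those with a promoter in the table, carried the letters shown for Gbp2 and Gbp2b.

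Of 10 Ifi200 genes, which encode sensors and regulators of cytosolic and nuclear DNA, 7 fell and 1 rose (median -0.88). Ifi207 lay at 80.2 to 100.1 CPM in B6g7 (median 90.5) and 17 to 29.8 CPM in NOD (median 24.2), with no overlap (log2 -1.93 ± 0.16, adjusted p = 2.4e-12). Ifi211 was at 93.4 to 228 CPM in B6g7 (median 159) and 29.8 to 82.3 CPM in NOD (median 52.2) and did not overlap either (log2 -1.51 ± 0.19, adjusted p = 8.5e-08). Ifi203 had 13.4 to 31.1 CPM in B6g7 (median 19.2) and 2.88 to 13.9 CPM in NOD (median 6.91) and fell with overlap between dates (log2 -1.60 ± 0.17, adjusted p = 1.1e-09). Aim2, which assembles an inflammasome on DNA, fell (-0.83 ± 0.12), with Ifi209 (-0.93 ± 0.11) and Mndal (-0.59 ± 0.15). Ifi202b, chosen here after its values were seen, had no count in B6g7 and 2.67 to 10.6 CPM (median 5.23) in NOD, at least 177-fold higher. Of 9 Trim5-like genes, which act against retroviruses, 5 fell and 1 rose (median -0.56). Trim12a fell from 51.99 to 81.4 CPM (median 63.2) in B6g7 to 0.0863 to 0.902 CPM (median 0.274) in NOD (log2 -7.30 ± 0.24, adjusted p = 5.9e-27). Trim12c fell from 34.6 to 66.6 CPM (median 48.5) to 5.09 to 12.7 CPM (median 10.5) (log2 -2.37 ± 0.27, adjusted p = 1.2e-08) and Trim34a from 43.2 to 63.3 CPM (median 51.5) to 19 to 27.5 CPM (median 22.6) (log2 -1.19 ± 0.18, adjusted p = 3.2e-06). Its close copy Trim34b rose (3.06 ± 0.41), and reads of such pairs may be assigned to either. Of 8 Schlafen genes, which restrain translation and proliferation, Slfn5 fell from 55.8 to 118 CPM (median 103) to 27.7 to 61.2 CPM (median 45.5) (log2 -1.07 ± 0.17, adjusted p = 7.3e-06) and Slfn2 from 121 to 197 CPM (median 158) to 89.7 to 144 CPM (median 119) (log2 -0.42 ± 0.08, adjusted p = 4.3e-05). The other 6 did not pass.

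**Figure D3:**
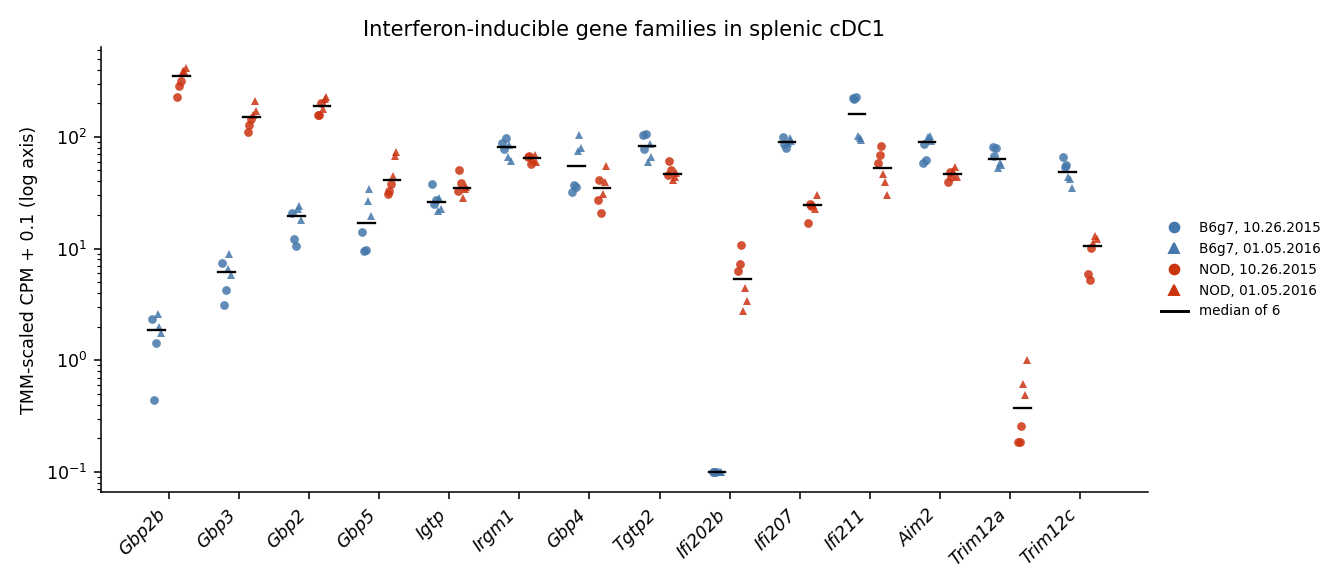
CPM + 0.1 of genes of the interferon-inducible families (log axis), 1 point per cDC1 library; blue, B6g7; red, NOD; circles, sorted 10.26.2015; triangles, sorted 01.05.2016; black lines, medians of 6. Gbp2b, Gbp2 and Gbp3 are higher in every NOD library, and Trim12a, Trim12c and Ifi207 are lower in every NOD library.

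Other lists of innate sensing changed in both directions. Of 24 genes of nucleic acid sensing 5 fell and 2 rose, with a median of 0.00 on the log2 scale, beside 20.4% of all tested genes called in either direction. Irak4, the kinase that relays Toll-like and IL-1 receptor signals, lay at 33.8 to 50.4 CPM in B6g7 (median 43.9) and 7.68 to 30 CPM in NOD (median 20.9) with no overlap (log2 -1.19 ± 0.16, adjusted p = 2.1e-07). Sting1, the adaptor of cytosolic DNA sensing, fell (-0.40 ± 0.09) and so did the DNA exonuclease Trex1 (-0.31 ± 0.08). The kinase genes Tbk1 (0.53 ± 0.09) and Ikbke (3.85 ± 0.68), which phosphorylate IRF3 and IRF7, rose, Ikbke with a mean under 10 CPM in both strains. Cgas did not pass (-0.11 ± 0.15, adjusted p = 0.68). Of 16 Toll-like receptor genes and co-receptors 3 rose and 2 fell (median 0.07), the falls being 1 in 8 of the 12 fits without 1 library. Tlr1, which with TLR2 binds bacterial lipopeptides, lay at 4.84 to 19.6 CPM in B6g7 (median 10.7) and 20.1 to 45.4 CPM in NOD (median 28.3). Every NOD library was above every B6g7 library (log2 1.43 ± 0.14, adjusted p = 1.4e-10). Tlr12, an endosomal sensor of protozoan profilin that cDC1 use, was at 35.4 to 118 CPM in B6g7 (median 72.8) and 13.4 to 76.4 CPM in NOD (median 35.3) and fell (log2 -1.06 ± 0.27, adjusted p = 0.0034), and it did not pass on either date alone (-1.31 and -0.83). Tlr6 rose (log2 0.67 ± 0.20, adjusted p = 0.011), not so without NOD replicate 2 (adjusted p = 0.058) or on 01.05.2016 alone (adjusted p = 0.25). Tlr3, the endosomal receptor of double-stranded RNA that marks cDC1, did not pass (0.04 ± 0.23, adjusted p = 0.93). Of 28 NF-kB pathway genes 7 rose and 5 fell (median 0.07), with 3 falls without B6g7 replicate 6 or NOD replicate 3 or 5 and when libraries were scaled by their totals alone. Nod2, a cytosolic sensor of bacterial cell wall fragments, lay at 3.85 to 6.39 CPM in B6g7 (median 5.37) and 8.11 to 32.9 CPM in NOD (median 18.4) (log2 1.72 ± 0.35, adjusted p = 3.2e-04), with changes of 0.69 and 2.68 on the 2 dates. Its relative Nod1 fell (log2 -0.92 ± 0.15, adjusted p = 1.1e-05), as did the kinase gene Map3k8 (log2 -0.46 ± 0.12, adjusted p = 0.0048), while the feedback inhibitors Nfkbia (0.38 ± 0.10), Tnfaip3 (0.33 ± 0.10) and Tnip1 (0.39 ± 0.09) rose.

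Il12b was the cytokine gene with the largest change among those at 10 CPM or more. It encodes the p40 subunit of IL-12 and IL-23 and lay at 109.8 to 202 CPM in B6g7 (median 132) and 8.94 to 22.8 CPM in NOD (median 13.9). The lowest B6g7 library was above the highest NOD library (log2 -3.29 ± 0.45, adjusted p = 1.2e-06), with changes of -3.37 and -3.22 on the 2 dates. Of 23 cytokine genes 6 rose and 2 fell (median 0.35). On 10.26.2015 alone 4 rose and 1 fell, and on 01.05.2016 alone 1 rose and 1 fell. Il15, which sustains NK and memory T cells, was at 27.7 to 61.5 CPM in B6g7 (median 36.6) and 15.8 to 40.04 CPM in NOD (median 26.6) and fell (log2 -0.60 ± 0.21, adjusted p = 0.032), although the call ended without any 1 of 6 libraries (B6g7 replicates 1, 3 and 5 and NOD replicates 1, 4 and 5, adjusted p 0.051 to 0.075). Ltb rose (log2 0.51 ± 0.17, adjusted p = 0.029) and its call ended without B6g7 replicate 1 or 2 or NOD replicate 1 or 5 (adjusted p 0.051 to 0.089). It was highest, at 148 to 195 CPM, in the NOD libraries of 10.26.2015, where B and T cell marker sums were also highest. In the Rag1-/- cDC1 its means were 15.8 CPM in B6 and 9.76 CPM in NOD (log2 -0.69 ± 0.46). The part of lymphocytes in its change was not tested. Il12a, the partner of Il12b in IL-12, was at or under 3.99 CPM in every library, and its change came from 10.26.2015 (8.60, against 0.70 on 01.05.2016). Of 25 chemokine genes 4 rose and 2 fell (median 0.18). The rises numbered 2 without B6g7 replicate 2 or 3 or NOD replicate 2, the falls 1 without B6g7 replicate 2, and the 12 libraries fitted alone gave 2 rises and 4 falls. Ccl24, which attracts eosinophils, lay at 0 to 1.97 CPM in B6g7 (median 0.533) and 6.54 to 28.6 CPM in NOD (median 12.5), with no overlap (log2 4.23 ± 0.65, adjusted p = 4.1e-06). Ccl4, which attracts monocytes and T cells, was at 19.6 to 338 CPM in B6g7 (median 89.9) and 12.7 to 97.9 CPM in NOD (median 37.7) and fell (log2 -1.33 ± 0.34, adjusted p = 0.0038). Ccl17 also fell, at low levels (-3.16 ± 0.89). Pf4, a platelet gene, was at 406 CPM in NOD replicate 2 and at 0.669 to 5.98 CPM in the other 5 NOD libraries (log2 3.43 ± 1.21, adjusted p = 0.039). Without that library its change was 0.37 (adjusted p = 0.69).

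Of 20 chemokine receptor genes 6 rose and 1 fell (median 0.39). Ccr2, the receptor of CCL2, lay at 27.1 to 61.3 CPM in B6g7 (median 41.5) and 49.2 to 138 CPM in NOD (median 88.8) and rose (log2 1.12 ± 0.26, adjusted p = 0.0018). It separated the strains within each date. The other 5 that rose, Cxcr2, Cxcr5, S1pr3, Ccr6 and Ackr3, were all under 5 CPM at the NOD median, and their changes on 10.26.2015 were 2.23, 3.93, 8.35, 4.05 and 7.79. On 01.05.2016 they were 0.77, 0.86, 1.54, 2.25 and 5.01. B cell, T cell and neutrophil marker sums were highest in the same NOD libraries of 10.26.2015, and their part in these changes was not tested. Ccr7, which guides dendritic cells to lymph nodes, did not pass (-0.08 ± 0.18, adjusted p = 0.83).

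Among 31 costimulatory and checkpoint genes 7 rose and 5 fell (median 0.06), with 4 rises without NOD replicate 6. Tnfrsf14, the receptor of LIGHT and BTLA, was at 2.37 to 6.15 CPM in B6g7 (median 3.09) and 12.1 to 20.6 CPM in NOD (median 16.1), without overlap (log2 2.21 ± 0.28, adjusted p = 3.3e-08). Pvr, a ligand of the receptors TIGIT and CD226, lay at 10.1 to 14.4 CPM in B6g7 (median 13.2) and 25.2 to 65.4 CPM in NOD (median 37.1) and rose (log2 1.61 ± 0.20, adjusted p = 1.6e-08). Btla itself also rose (0.46 ± 0.09). Icos, better known as a T cell costimulator, was at 15.5 to 38.7 CPM in B6g7 (median 30.9) and 3.47 to 12.9 CPM in NOD (median 6.85) and fell without overlap (log2 -2.09 ± 0.26, adjusted p = 2.8e-08). Its change was -2.08 and -2.11 on the 2 dates. In the Rag1-/- cDC1 its means were 4.84 CPM in B6 and 3.12 CPM in NOD, with overlap (log2 -0.64 ± 0.59). The part of lymphocytes in its change was not tested. Cd200r1, an inhibitory receptor, fell (-1.43 ± 0.19). Cd28 and Pdcd1 rose from and to levels near 1 CPM, by 9.10 and 4.48 on 10.26.2015 and by 1.503 and 1.10 on 01.05.2016, in the libraries where T cell markers were highest, whose part was not tested. The main ligands of CD28 did not pass, with Cd80 at -0.26 ± 0.14 (adjusted p = 0.21) and Cd86 at -0.02 ± 0.12 (adjusted p = 0.95), nor did Cd40 (0.20 ± 0.15, adjusted p = 0.39). Of 11 SLAM family genes, receptors by which leukocytes recognise each other, 3 fell and 2 rose (median 0.36), the rises being 1 in 8 of the 12 fits without 1 library. Slamf7 lay at 561 to 625 CPM in B6g7 (median 585) and 209 to 293 CPM in NOD (median 248) (log2 -1.26 ± 0.11, adjusted p = 8.3e-13). Cd244a lay at 119 to 153 CPM in B6g7 (median 140.0) and 45.7 to 68.9 CPM in NOD (median 56.7) (log2 -1.28 ± 0.10, adjusted p = 1.0e-13). Ly9 lay at 42.8 to 61.6 CPM in B6g7 (median 53.1) and 62.9 to 92.6 CPM in NOD (median 73.6) and rose (log2 0.55 ± 0.10, adjusted p = 8.4e-05), all 3 without overlap.

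Fc receptors gave some of the clearest falls at the cell surface. Fcgr2b encodes the inhibitory receptor for IgG that raises the threshold of activation by immune complexes, and it was at 101 to 144 CPM in B6g7 (median 118) and 5.35 to 17.2 CPM in NOD (median 9.11). The lowest B6g7 library lay far above the highest NOD library (log2 -3.58 ± 0.16, adjusted p = 5.8e-21). Fcrla, an intracellular Fc receptor-like protein, was at 69.3 to 90.8 CPM in B6g7 (median 73.6) and 3.83 to 26.98 CPM in NOD (median 8.86) (log2 -2.97 ± 0.48, adjusted p = 1.3e-05), also without overlap. Of 14 Fc receptor genes 5 fell and 2 rose (median -0.34), with further falls of Fcer1g, the common signalling chain (-1.16 ± 0.14), of the inhibitory receptor gene Pirb (-1.15 ± 0.09) and of Fcgr4 (-0.84 ± 0.26). Fcgr genes and the Pir genes have close copies and their read assignment is uncertain. Fcmr, the B cell receptor for IgM, rose overall (log2 2.43 ± 0.77, adjusted p = 0.022) with changes of 4.05 on 10.26.2015 and 0.17 on 01.05.2016, and the call ended without B6g7 replicate 1, 2 or 3 or NOD replicate 1 (adjusted p 0.054 to 0.098). Of 28 C-type lectins 8 rose and 3 fell (median 0.29). On 10.26.2015 alone 9 rose and 3 fell (median 0.66), and on 01.05.2016 alone 4 rose and 4 fell (median -0.01). The 12 libraries fitted alone gave 6 rises and 4 falls. Cd207, langerin, which marks a subset of cDC1, lay at 90.98 to 209 CPM in B6g7 (median 152) and 479 to 1198 CPM in NOD (median 854). NOD libraries were all higher (log2 2.47 ± 0.31, adjusted p = 1.6e-07), with 2.43 and 2.51 on the 2 dates. Klrd1 (CD94) lay at 44.9 to 134 CPM in B6g7 (median 79.1) and 11.4 to 56.6 CPM in NOD (median 18.96) and fell (log2 -1.75 ± 0.17, adjusted p = 2.5e-10). Clec7a (dectin-1), a receptor of fungal glucans and a cDC2 marker, lay at 45.5 to 76.2 CPM in B6g7 (median 55.7) and 13.6 to 34.9 CPM in NOD (median 23.9) (log2 -1.35 ± 0.18, adjusted p = 2.2e-07), and Clec12a, a receptor of dead cells, fell as well (-0.95 ± 0.12). For Clec7a the authors' result per transcript had the other sign and did not pass (log2 1.62, limma adjusted p = 0.06). Clec4d and Clec4e had no count in B6g7 and means of about 1 CPM in NOD, at least 40-fold and 35-fold higher.

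**Figure D4:**
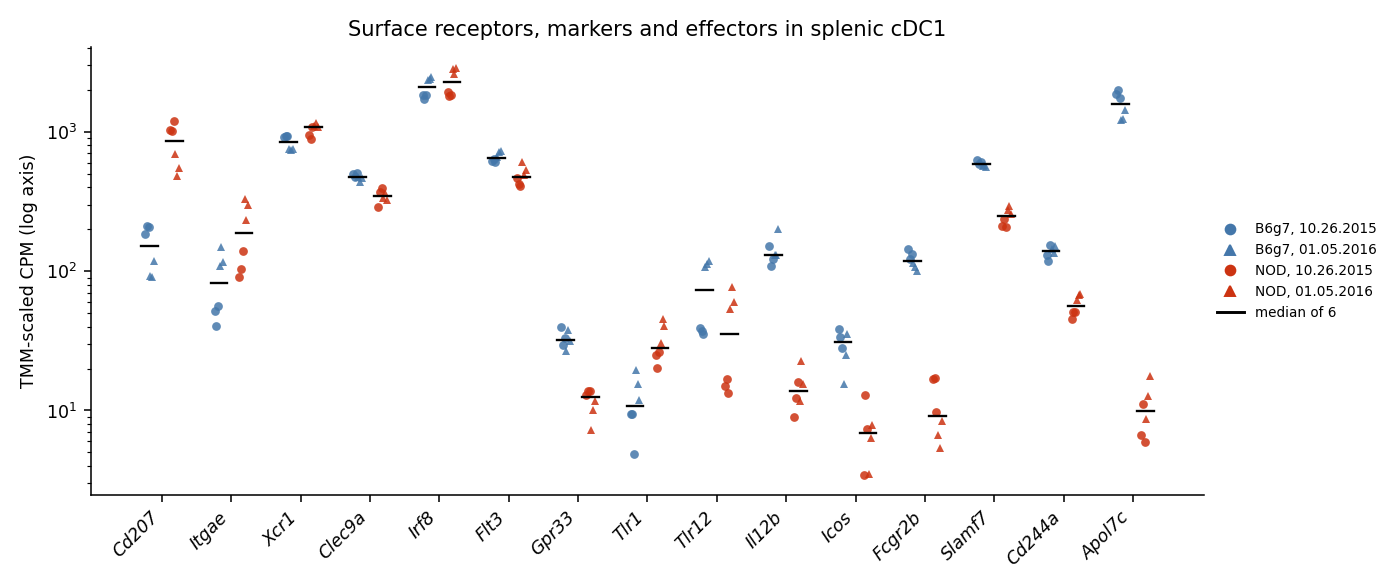
CPM of dendritic cell genes (log axis), 1 point per cDC1 library; blue, B6g7; red, NOD; circles, sorted 10.26.2015; triangles, sorted 01.05.2016; black lines, medians of 6. Fcgr2b, Il12b and Icos are lower and Cd207 higher in every NOD library, whereas Xcr1 and Irf8 overlap.

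Of 31 cDC1 identity genes 6 rose and 5 fell (median 0.04), and 11 rose and 8 fell when the 12 cDC1 libraries were fitted alone. Beside Cd207, Itgae (CD103), an integrin that marks the same subset, was at 40.5 to 149 CPM in B6g7 (median 82.7) and 91 to 331 CPM in NOD (median 187) and rose (log2 1.19 ± 0.24, adjusted p = 3.2e-04) with overlap between dates but not within them. Septin3 (0.79 ± 0.21), Btla, Naaa (0.30 ± 0.10) and Ppt1 (0.28 ± 0.08) were the other rises. Gpr33, a chemoattractant receptor gene, was at 26.9 to 39.5 CPM in B6g7 (median 32.2) and 7.19 to 13.8 CPM in NOD (median 12.4) (log2 -1.52 ± 0.44, adjusted p = 0.011), a fall that DESeq2 did not call (adjusted p = 0.19). Flt3, the growth factor receptor on which cDC development depends, lay at 610.1 to 733 CPM in B6g7 (median 650.0) and 408 to 610.2 CPM in NOD (median 477) and fell (log2 -0.45 ± 0.10, adjusted p = 6.9e-04). Bcl6 (-0.61 ± 0.18) and Zbtb46 (-0.31 ± 0.12), transcription factors of conventional dendritic cells, fell with Tlr12. Batf3 did not pass (0.11 ± 0.17, adjusted p = 0.72), nor did Wdfy4 (-0.09 ± 0.09, adjusted p = 0.56), which is needed for cross-presentation. Among growth factor receptors 4 of 22 fell and 2 rose (median 0.05), and Il6st, the shared IL-6 receptor chain, lay at 52.1 to 209.6 CPM in B6g7 (median 114) and 22.4 to 100.2 CPM in NOD (median 60.7) (log2 -1.004 ± 0.14, adjusted p = 8.8e-07). Of 20 integrin genes 4 rose and 1 fell (median 0.19; 3 and 4 with the 12 libraries alone), with Itgad at 2.71 to 14.1 CPM in B6g7 (median 7.25) and 5.35 to 46.5 CPM in NOD (median 26.3) (log2 1.55 ± 0.22, adjusted p = 3.5e-07) and Itga4 at 206 to 542 CPM in B6g7 (median 369) and 100.5 to 321 CPM in NOD (median 209) (log2 -0.82 ± 0.10, adjusted p = 7.1e-09).

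Antigen presentation genes changed in both directions. Of 34 MHC class I genes 7 rose and 2 fell (median 0.11), beside 20.4% of all tested genes called. The rises numbered 4 without NOD replicate 1 and 11 with the 12 libraries alone, and the falls 1 without NOD replicate 2. H2-M2, a nonclassical class I gene, lay at 34.9 to 57.8 CPM in B6g7 (median 47.7) and 95.2 to 226 CPM in NOD (median 158) with no overlap (log2 1.70 ± 0.18, adjusted p = 2.5e-09). Calr, a chaperone of class I loading, was at 629 to 712 CPM in B6g7 (median 669) and 1060.0 to 1315 CPM in NOD (median 1114) (log2 0.80 ± 0.08, adjusted p = 6.7e-11), also without overlap. H2-K1 rose (0.29 ± 0.08), while B2m (-0.09 ± 0.09, adjusted p = 0.55) and the peptide transporter gene Tap1 (0.10 ± 0.10, adjusted p = 0.56) did not pass. H2-T22 rose (log2 0.46 ± 0.17, adjusted p = 0.043), and it lost its call in 8 of the 12 fits without 1 library. Of 17 MHC class II genes H2-Eb2 rose, from 12 to 14.1 CPM (median 12.8) to 26.5 to 37.6 CPM (median 32.6) (log2 1.31 ± 0.17, adjusted p = 4.1e-08), and Rfxap, a class II promoter factor, fell (log2 -0.33 ± 0.09, adjusted p = 0.0094). H2-Ab1 (0.02 ± 0.09, adjusted p = 0.92), in the haplotype that both strains share, and Cd74 (-0.04 ± 0.08, adjusted p = 0.80) did not pass. The list's median was 0.03. MHC genes have close paralogs, so single values are uncertain. How much of the MHC region B6g7 shares with NOD was not examined.

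Of 16 cathepsins and cystatins, the lysosomal proteases that process antigen and their inhibitors, 8 rose and none fell (median 0.23). Ctsz lay at 483 to 1031 CPM in B6g7 (median 791) and 739 to 1422 CPM in NOD (median 1105) and rose (log2 0.52 ± 0.07, adjusted p = 8.6e-08). Ctsd lay at 37.9 to 81.7 CPM in B6g7 (median 51.2) and 68.8 to 152 CPM in NOD (median 77.9) (log2 0.76 ± 0.21, adjusted p = 0.007) and Ctsl at 8.27 to 13.8 CPM in B6g7 (median 10.7) and 8.94 to 22.4 CPM in NOD (median 17.2) (log2 0.53 ± 0.14, adjusted p = 0.0035), both with overlap. On 01.05.2016 alone 1 member was called, and Ctsd was then at 0.10 against 1.44 on 10.26.2015. Red pulp macrophage markers summed to 633 to 988 CPM in the NOD libraries of 10.26.2015 and to 319 to 538 CPM in the other 9, and their part in this was not tested. Of 27 cross-presentation genes 6 rose and none fell (median 0.07), though 3 fell with the 12 libraries alone and 1 without B6g7 replicate 1 or NOD replicate 2. Ncf4, a subunit of the phagosomal NADPH oxidase, lay at 135 to 368 CPM in B6g7 (median 234) and 293 to 658 CPM in NOD (median 473) (log2 0.99 ± 0.08, adjusted p = 1.4e-13), separate within each date. Dnase1l3, a secreted DNase that digests chromatin of dead cells, was at 701 to 1300.0 CPM in B6g7 (median 994) and 1522 to 2084 CPM in NOD (median 1784) (log2 0.87 ± 0.13, adjusted p = 1.2e-06), with no overlap. Syk, the kinase that acts downstream of CLEC9A, was at 35.7 to 97.4 CPM in B6g7 (median 61.2) and 62.2 to 159 CPM in NOD (median 96.99) and rose (log2 0.74 ± 0.08, adjusted p = 2.4e-09).

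Most of the sterol genes that passed were lower in NOD. Of 32 genes of sterol synthesis, uptake and export 13 fell and 3 rose (median -0.27), and 7 of the 13 did not overlap. The rises numbered 1 without B6g7 replicate 4, 5 or 6 or NOD replicate 5. Sc5d, a late enzyme of cholesterol synthesis, was at 40.3 to 62.97 CPM in B6g7 (median 57.6) and 10.4 to 18.6 CPM in NOD (median 13.3) (log2 -2.03 ± 0.13, adjusted p = 8.1e-17). Mylip, a ubiquitin ligase gene that sterol receptors raise, was at 8.47 to 30.9 CPM in B6g7 (median 19.4) and 20.9 to 66.5 CPM in NOD (median 43.4) and rose (log2 1.196 ± 0.14, adjusted p = 3.2e-09). The synthesis genes Sqle (-1.195 ± 0.21), Fdft1 (-1.12 ± 0.18), Cyp51 (-1.11 ± 0.11), Hmgcs1 (-1.08 ± 0.14), Idi1 (-1.06 ± 0.18) and Msmo1 (-0.94 ± 0.16) fell. Called falls numbered 10 on each date. The letters shown for interferon-response promoters stood before 1 of 24 genes of this list with a promoter.

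Of 25 endoplasmic reticulum chaperone genes 12 rose and none fell (median 0.20). Hyou1 lay at 12.7 to 39.4 CPM in B6g7 (median 27.1) and 27.4 to 149 CPM in NOD (median 76.2) (log2 1.47 ± 0.16, adjusted p = 1.4e-09) and Pdia4 at 100.5 to 130.4 CPM in B6g7 (median 110.0) and 128 to 201 CPM in NOD (median 177) (log2 0.59 ± 0.15, adjusted p = 0.0033). The rises fell mainly on 01.05.2016, when 11 were called and none fell, against 2 that rose and 1 that fell on 10.26.2015. On 01.05.2016 the strains also differed in the number of sorted cells, and the part of cell number was not tested. Of 35 genes of DNA replication and mitosis 6 rose and 1 fell (median 0.23). The rises numbered 3 without B6g7 replicate 3 and 15 with the 12 libraries alone. The list held Ccnd2, a cyclin of early G1, at 7.84 to 22.6 CPM in B6g7 (median 12.1) and 16.7 to 42.4 CPM in NOD (median 26.8) (log2 0.98 ± 0.21, adjusted p = 5.6e-04). Ccnb1 (log2 1.01 ± 0.30, adjusted p = 0.014) and Ube2c (log2 1.07 ± 0.38, adjusted p = 0.041) rose with calls that ended without a single library, Ccnb1 without B6g7 replicate 3 (adjusted p = 0.059) and Ube2c in 10 of the 12 such fits. Of 20 glycolysis genes 5 rose and 4 fell (median 0.14; 2 fell without NOD replicate 3), and Pfkp, the platelet-type phosphofructokinase, lay at 119 to 172 CPM in B6g7 (median 139) and 53.8 to 87.7 CPM in NOD (median 75.7) with no overlap (log2 -0.95 ± 0.11, adjusted p = 2.9e-09). Of 15 BCL2 family genes Pmaip1 fell from 576 to 899.9 CPM (median 756) to 448 to 567 CPM (median 542) (log2 -0.48 ± 0.11, adjusted p = 0.0011), and Bid (log2 0.37 ± 0.10, adjusted p = 0.0038) and Bcl2 (log2 0.67 ± 0.21, adjusted p = 0.016) rose, all without overlap, although the Bcl2 call ended without B6g7 replicate 1 (adjusted p = 0.053). Of 29 immediate early and heat shock genes, which handling of tissue can raise, 4 fell and 1 rose (median -0.08), with Nr4a2 at 18.9 to 25.5 CPM in B6g7 (median 20.2) and 6.41 to 17.3 CPM in NOD (median 11.3) (log2 -0.85 ± 0.21, adjusted p = 0.003). The falls numbered 1 without B6g7 replicate 3 and 2 without NOD replicate 5, and the rise was lost in 6 of the 12 fits without 1 library. Of 24 candidate genes of diabetes loci 4 fell and 1 rose (median 0.00), which were Ifih1, Icos, Bach2 (-0.92 ± 0.31), Ptpn22 (log2 -0.46 ± 0.12, adjusted p = 0.0056) and, higher, Ctsh (0.20 ± 0.07). Over all tested genes 20.4% were called, near the share of this list. No member rose in 5 of the 12 fits without 1 library.

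Apolipoprotein L genes, which encode membrane-active lipid-binding proteins, held one of the larger falls. Apol7c was at 1219 to 1983 CPM in B6g7 (median 1589) and 5.98 to 17.8 CPM in NOD (median 9.86). The highest NOD library lay far below the lowest B6g7 library (log2 -7.22 ± 0.32, adjusted p = 9.6e-19). Gm8221, a similar gene, lay at 939 to 1602 CPM in B6g7 (median 1179) and 24.6 to 65.3 CPM in NOD (median 39.03) (log2 -4.89 ± 0.33, adjusted p = 9.9e-14), and Apol10b at 17.6 to 42.9 CPM in B6g7 (median 28.1) and 3.80 to 6.93 CPM in NOD (median 5.45) (log2 -2.39 ± 0.45, adjusted p = 9.5e-05). Of 13 listed genes 5 passed the filter on low counts and 3 of these fell, the third being Apol7e (-4.53 ± 1.04). Reads of Apol7c, Apol7e and Gm8221 may be shared among them.

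**Figure D5:**
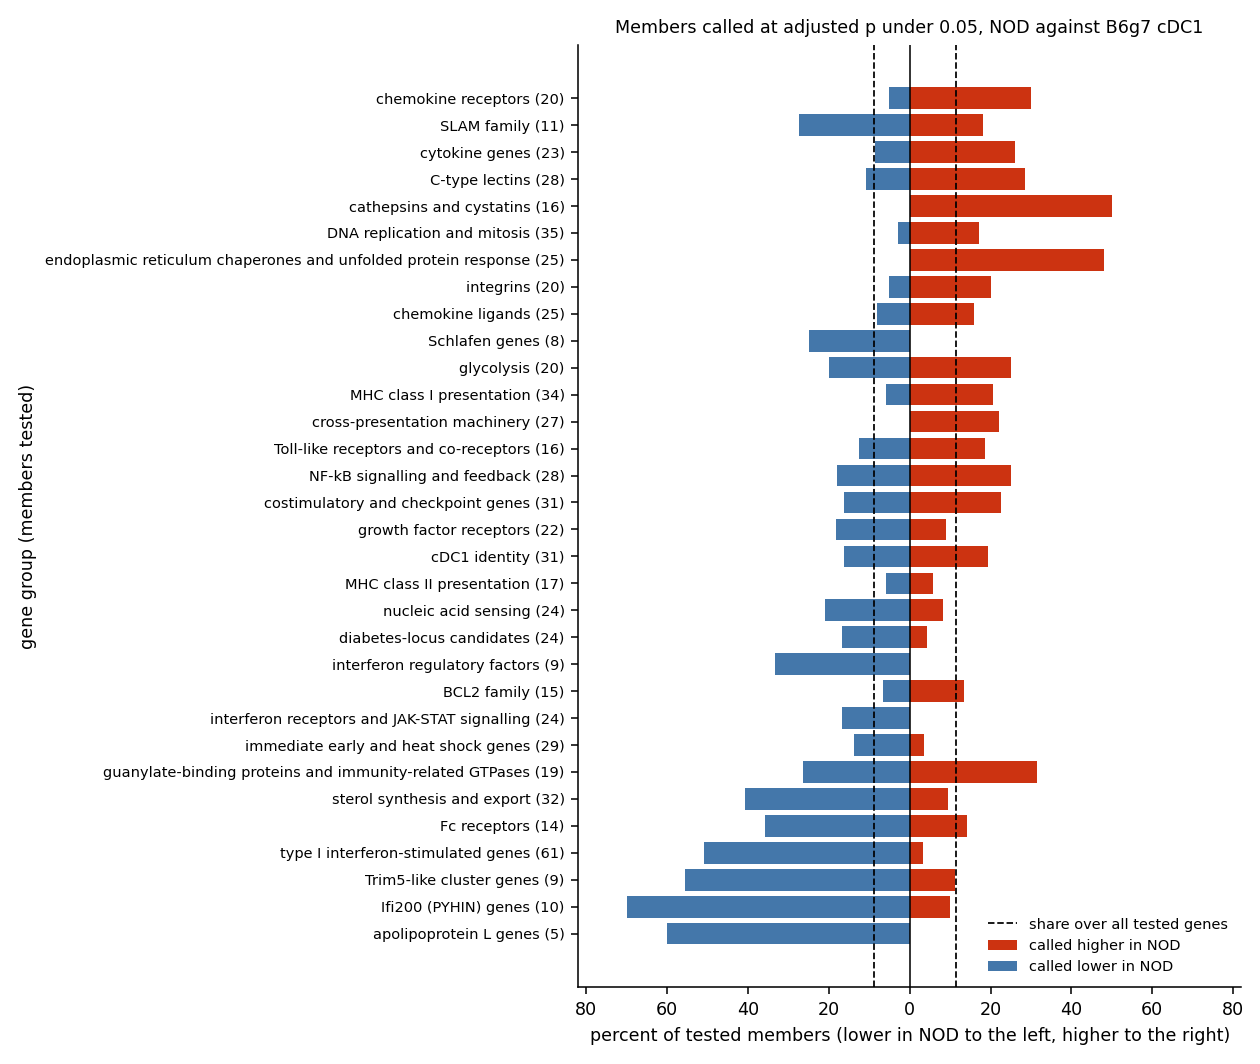
Percent of the tested members of each gene list called higher (right) or lower (left) in NOD cDC1, lists ordered by their median log2 change; dashed lines, the shares over all 13413 tested genes (11.5% higher and 8.93% lower). The type I interferon-stimulated, Ifi200, Trim5-like, apolipoprotein L and sterol lists reach farthest left, and the endoplasmic reticulum and cathepsin lists reach right with no member on the left.

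The strain difference in cDC1 was set against that in cDC2, the other conventional dendritic cell, sorted on the same dates. It differed for 766 of 13413 genes (5.71%), 439 with a more positive change in cDC1 (3.27%) and 327 with a more negative one (2.44%), or 293 and 351 when libraries were scaled by their totals alone. Of the cDC2 libraries, B6g7 replicates 5 and 6 had RNA integrity numbers of 6.8 and 3.9, against 8.3 or more in the others. Surface receptor and cytokine genes were among the differences. Fcgr2b was at 120.3 ± 16.1 CPM in B6g7 and 10.7 ± 5.09 CPM in NOD in cDC1 (SD, n = 6 each here and below), against 17.1 ± 6.37 CPM in B6g7 and 12.8 ± 6.52 CPM in NOD in cDC2, and the strain effects differed by -3.10 ± 0.22 on the log2 scale (adjusted p = 1.8e-13). Il12b was at 142 ± 32.7 CPM in B6g7 and 14.5 ± 4.78 CPM in NOD in cDC1 and at 13.03 ± 6.39 CPM in B6g7 and 14.1 ± 9.19 CPM in NOD in cDC2 (difference -3.28 ± 0.61, adjusted p = 6.8e-04). The change of Icos was also more negative in cDC1 (difference -1.90 ± 0.35, adjusted p = 2.7e-04), as was that of Klrd1 (-1.87 ± 0.23, 4.7e-07) and Fcrla (-5.19 ± 0.74, 7.6e-06). The mean of Fcrla in cDC2 was higher in NOD, at 2.01 ± 1.87 CPM in B6g7 and 12.05 ± 10.6 CPM in NOD. Of 31 cDC1 identity genes, 10 had a more negative change in cDC1 than in cDC2 and 1 a more positive one (median difference -0.44).

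The rises of Gbp3 and Gbp2 were larger in cDC1. Gbp3 was at 5.91 ± 2.10 CPM in B6g7 and 153 ± 34.2 CPM in NOD in cDC1 and at 9.38 ± 2.004 CPM in B6g7 and 27.03 ± 4.004 CPM in NOD in cDC2 (difference 3.17 ± 0.23, adjusted p = 1.8e-13), and the effects on Gbp2 differed by 2.06 ± 0.23 (adjusted p = 2.5e-08). For Gbp2b, the member with the largest rise in cDC1, the difference did not pass (2.12 ± 1.35, adjusted p = 0.44), and 3 of the 19 GBPs and immunity-related GTPases passed, each more positive in cDC1. Cpne8, a membrane-binding copine, was at 6.78 ± 3.41 CPM in B6g7 and 44.6 ± 14.5 CPM in NOD in cDC1 and at 2.04 ± 0.746 CPM in B6g7 and 1.27 ± 0.402 CPM in NOD in cDC2 (difference 3.46 ± 0.52, adjusted p = 8.1e-06). In the other direction, Cenpv, a centromere protein gene, was at 49.3 ± 12.8 CPM in B6g7 and 6.48 ± 1.40 CPM in NOD in cDC1 and at 1.90 ± 0.311 CPM in B6g7 and 2.90 ± 1.32 CPM in NOD in cDC2 (difference -3.46 ± 0.51, adjusted p = 5.5e-06). Irf8, which did not pass in cDC1, was at 2117 ± 346 CPM in B6g7 and 2320.0 ± 509.6 CPM in NOD there and at 22.5 ± 5.62 CPM in B6g7 and 49.98 ± 17.7 CPM in NOD in cDC2 (difference -1.04 ± 0.20, adjusted p = 7.2e-04). For Ifih1 (difference -0.62 ± 0.33, adjusted p = 0.32), Irf7 (0.51 ± 0.17, 0.076) and Trim12a (-0.05 ± 0.34, 0.98) the difference did not pass. In cDC2 their means were also lower in NOD, at 18.5, 50 and 0.612 CPM against 52.5, 128 and 96.7 CPM in B6g7. Of 61 type I interferon-stimulated genes, 7 had a more positive change in cDC1 and 1 a more negative one (median difference 0.20). Over all tested genes these shares were 3.27% and 2.44%. Irf9 (0.38 ± 0.10, 0.018) had a less negative change in cDC1 than in cDC2.

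The same strain comparison without lymphocytes was made in cDC1 of NOD Rag1-/- and B6 Rag1-/- mice, which share no sample with the 12 libraries. They were sorted on 11.14.2014, 02.02.2015 and 04.03.2015 from 6847 to 11969 cells and sequenced in run 1, not run 2, and their controls are labelled B6 and not B6g7. Each date held both strains, with 1 library of each, and values per library are given in date order. Rag genotype, run, date, cell number and control MHC haplotype cannot be told apart between the sets. Of 13137 genes 219 (1.67%) passed, 101 higher (0.769%) and 118 lower (0.898%) in NOD Rag1-/-. The count was 118 without NOD Rag1-/- replicate 2 and 135 without replicate 3. Of the 219 genes, 195 were called in the same direction in the 12 libraries, which is 89.0% of this list and 7.35% of the 2654 genes called in NOD against B6g7 and tested in both sets. A further 3 were called in opposite directions.

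Several of the largest changes were also seen per library here. Ifih1 lay at 29.4, 23.3 and 44.9 CPM in the 3 B6 Rag1-/- libraries and at 7.81, 8.66 and 8.92 CPM in the 3 NOD Rag1-/- libraries, without overlap (log2 -1.94 ± 0.29, adjusted p = 6.3e-04). Fcgr2b lay at 124, 104 and 123 against 4.41, 4.10 and 3.49 CPM (-4.87 ± 0.46, adjusted p = 1.8e-06). Gbp2b lay at 4.58, 12.5 and 4.74 against 754, 269 and 489.7 CPM (6.11 ± 0.94, adjusted p = 9.7e-04). The groups of Trim12a, at 41.7, 40.1 and 55.04 against 0.0596, 0.057 and 0 CPM, and of Apol7c, at 922, 793 and 701 against 4.71, 0.342 and 1.09 CPM, did not overlap either. Cd207 was at 192, 152 and 175 against 878, 809 and 1182 CPM (2.47 ± 0.71, adjusted p = 0.11), and Il12b at 49.4, 216 and 64.9 against 20.9, 16.6 and 21.8 CPM (-2.47 ± 0.74, adjusted p = 0.14).

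Of 61 type I interferon-stimulated genes tested in the Rag1-/- set, Ifih1 alone fell and none rose, with a median of -0.03 for the list. Irf7 was at 222, 157 and 282 in B6 Rag1-/- and 178, 135 and 178 CPM in NOD Rag1-/- (-0.43 ± 0.48, adjusted p = 1.00). Isg15 gave 0.33 ± 0.69 (adjusted p = 1.00) and Oas1a -1.92 ± 0.71 (adjusted p = 0.27). Taken by date, NOD Rag1-/- lay below B6 Rag1-/- on each date for Irf7 and Oas1a. Oas1a was at 4.29, 4.56 and 7.43 CPM in NOD Rag1-/- against 6.98, 6.37 and 48.3 CPM in B6 Rag1-/-. Ifi27l2a and Stat2 were not lower on every date. The Rag1-/- fit had fewer libraries, no term for sort date and a biological coefficient of variation of 44.2%. That of the Rag-sufficient fit, which held the date term, was 22.1%. The difference between the 2 strain effects itself passed for 29 of 13837 genes (0.210%), 16 more positive in the Rag-sufficient set (0.116%) and 13 more negative (0.0940%), and no gene of the type I list was among them. Of those 29 genes, 19 lay on chromosome 17, which carries the MHC, and 11 of these were H2 genes. H2-K1, of which B6 and NOD carry different alleles, was at 2418, 2443 and 2271 CPM in B6 Rag1-/- and 758, 632 and 737 CPM in NOD Rag1-/- (-1.75 ± 0.29), while it lay at 647 to 1069 CPM in B6g7 (median 867) and 833 to 1250.0 CPM in NOD (median 1059) (log2 0.29 ± 0.08, adjusted p = 0.0049), a difference of 2.002 ± 0.22 (adjusted p = 1.7e-09). H2-T22 differed by 3.08 ± 0.29 (adjusted p = 7.9e-12). On other chromosomes, Hebp1 (2.85 ± 0.62, adjusted p = 0.017) and Irak4 (1.32 ± 0.31, adjusted p = 0.046) had a more positive change in the Rag-sufficient set. Hebp1 was uneven in B6 Rag1-/-, at 1.64, 0.998 and 9.81 CPM, against 31.3, 38.9 and 47.5 CPM in NOD Rag1-/-.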

How the data were processed

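RNA of sorted splenic cells was sequenced as 150 bp paired-end reads from SMART-seq v4 libraries, per the labels' protocols. The labels record an RNA input to cDNA synthesis of 500 pg for the cDC1 libraries and 225 to 500 pg for the cDC2 libraries compared. The authors deposited expected counts per transcript for all 70 libraries, in a sheet whose name says CPM but whose entries are estimated counts: columns sum to different totals and 48.2% of entries above 0 are fractional (tolerance 0.01). RSEM and limma are named in the submitters' processing notes. Which aligner, build and annotation they used is not given in the sources used here, and no gene coordinates from the files are printed. The authors also deposited log2 fold changes and adjusted p-values per transcript, which were used beside the results only. Their post-processed expression tables were not used.

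The 35070 transcripts were named by RefSeq accession (34710) or by the authors' table (262), 98 stayed unnamed, and expected counts were summed to 24429 genes and rounded. Genes reaching 1 CPM in 3 or more of the fitted libraries entered the test with edgeR 4.0.16 in R 4.3.3 (TMM scaling, 0.738 to 1.14 in cDC1; robust quasi-likelihood test; two-sided; Benjamini-Hochberg adjustment per comparison; threshold 0.05). The NOD against B6g7 fit held 47 Rag-sufficient libraries with an intercept for each of 8 cell type and date strata and 1 strain effect per cell type, leaving 34 residual degrees of freedom, the Rag1-/- fit held 23 libraries and left 15, and a fit of all 70 tested the difference between the sets. Log2 changes are NOD minus B6g7 ± standard error, on the scale of the fitted counts, and those of genes near 0 in a strain depend on the small count that edgeR adds. A fold against a strain with no count uses a floor of 3 counts over the group, which covers counting error only. The NOD against B6g7 fit was tested on simulated data. Genes and lists were chosen with earlier results of these data known, so counts over a list are descriptions. Named genes were the 10 largest rises and falls without overlap at 10 CPM or more, the 5 largest at 100 CPM or more, up to 3 called members per list, the cDC1 markers and the 5 largest differences from cDC2 in each direction. Other members are given to show a list's range. A few genes that met these rules are not reported here. Replicates of the same number deviated together (correlations of 0.441 to 0.560 around strain means), which followed the shared sort date, since around strain and date means they were -0.0132 to 0.0453. The block of sort date was in the NOD against B6g7 fit. The Rag1-/- fit had 1 mean per cell type and strain and no term for sort date. DESeq2 1.42.0, limma-voom (limma 3.58.1), other scalings and filters, fits by date and fits without each library were run as alternatives.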

Additional observations from a re-analysis of the deposited data

Results flagged for a closer look

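Single libraries stood apart within their group of 6 for 8 of 224 gene and group pairs examined, and chance alone flags about 1 in 20. In B6g7, Zfp979 was at 0.0571 CPM in replicate 5 and 0 in the others, Ucp1 at 0.183 CPM in replicate 6 against 0.0571 or less, and Nr4a2 at 25.5 CPM in replicate 4 with the next at 21.1 CPM. In NOD, Irf7 was at 66.2 CPM in replicate 3, below the next at 83.7 CPM. Ccl24 was at 28.6 CPM in NOD replicate 3 (next 13.8), Pf4 at 406 CPM in replicate 2 (next 5.98), Dusp1 at 1213 CPM in replicate 1 (next 783) and St6galnac2 at 20.9 CPM in replicate 1 (next 11.5).

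The strain effect differed between cDC1 and cDC2 for 33 of the named genes by the test of the difference itself (edgeR's quasi-likelihood test, adjusted p 1.8e-13 to 0.047, values as log2 of the effect in cDC1 minus that in cDC2). It was more positive in cDC1 for 18: Ucp1 (4.98 ± 1.26), Ccl24 (4.10 ± 0.87), Apol10b (4.06 ± 0.88), Cpne8 (3.46 ± 0.52), Gbp3 (3.17 ± 0.23), Gm8221 (2.92 ± 0.61), Apol7c (2.59 ± 0.60), Ccnd2 (2.16 ± 0.29), Gbp2 (2.06 ± 0.23), Tlr1 (1.60 ± 0.19), Ccnb1 (1.36 ± 0.42), H2-Eb2 (1.12 ± 0.22), Ctsz (0.79 ± 0.10), Csf2rb2 (0.75 ± 0.18), Ncf4 (0.66 ± 0.11), Mylip (0.63 ± 0.19), Ly9 (0.53 ± 0.14) and Irf9 (0.38 ± 0.10). It was more negative in cDC1 for 15: Dkk3 (-5.28 ± 1.30), Fcrla (-5.19 ± 0.74), Spint1 (-3.95 ± 0.53), St6galnac2 (-3.71 ± 0.57), Cenpv (-3.46 ± 0.51), Il12b (-3.28 ± 0.61), Fcgr2b (-3.10 ± 0.22), Tlr12 (-2.71 ± 0.41), Ifi211 (-1.93 ± 0.29), Icos (-1.90 ± 0.35), Klrd1 (-1.87 ± 0.23), Ifi203 (-1.47 ± 0.23), Irf8 (-1.04 ± 0.20), Sc5d (-0.96 ± 0.18) and Cd244a (-0.45 ± 0.14). Such a difference does not give the direction in either cell type. Apol10b, Gm8221 and Apol7c had lower means in NOD in both, at 0.0509, 0.441 and 0.269 CPM in NOD cDC2. St6galnac2 had higher means in NOD in both, 11.8 against 1.10 CPM in cDC1 and 191 against 1.34 CPM in cDC2. Dkk3 was near 0 in cDC2, at 0.0428 CPM in B6g7 and 0.288 CPM in NOD. Fcrla and Tlr12 had lower means in NOD cDC1 but higher means in NOD cDC2, at 12.05 and 9.97 CPM against 2.01 and 3.49 CPM in B6g7. Between the Rag-sufficient and Rag1-/- cDC1 the strain effect differed for Hebp1 (2.85 ± 0.62), Irak4 (1.32 ± 0.31) and H2-T22 (3.08 ± 0.29) (adjusted p 7.9e-12 to 0.046), each more positive in the Rag-sufficient set. For Hebp1, replicate 3 of B6 Rag1-/- stood apart, at 9.81 CPM against 1.64 and 0.998 CPM.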

How the results depend on the processing

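For NOD against B6g7 cDC1, 2484 to 3016 genes were called under other scalings, filters and tools and with the 12 libraries alone, against 2738. Without the sort date term 1141 were called, on 10.26.2015 alone 1720 and on 01.05.2016 alone 1345, each with 6 of the 12 libraries. Without each library in turn the count was 2424 to 2547. With the replicate number as a block in place of date it was 2596, the cDC1 against cDC2 count 619 and the Rag1-/- count 204, and Pf4 (adjusted p = 0.31), H2-T22 (adjusted p = 0.059) and Ube2c (adjusted p = 0.061) lost their calls. The cDC1 against cDC2 count of 766 became 151 without the date term and 665 to 722 without each cDC1 library, and for these counts the cause was not tested. The Rag1-/- count of 219 became 482 with the DESeq2 Wald test, 510 with the 6 cDC1 libraries alone and 118 to 159 without each library. The difference between the sets, 29 genes, became 72 with the DESeq2 Wald test and 21 to 37 without each library. Of 2575 values of named genes under the alternatives, 2398 kept their direction and side of the threshold, 170 lost and 6 gained a call, and 1 reversed: Pf4 was at -0.39 on 01.05.2016 alone (adjusted p = 0.83), a fit without NOD replicate 2. Other scalings moved the median of all genes to between 0.01 and 0.04. Genes under a few CPM, among them most chemokine receptors and the markers of other cells, rest on few counts, and a missing call for them says little.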
